A study of Mus musculus with 18 samples.

Results

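The unfolded protein response and the integrated stress response were followed through 10 genes, namely Hspa5, Hsp90b1, Dnajb9, Ern1, Atf6, Xbp1, Atf4, Ddit3, Trib3 and Asns. They were chosen by symbol as widely used sensors, transcription factors and targets of these responses, and they are 10 of the 25124 genes listed in each count table. Transcripts were counted in 3 fat depots of male C57BL/6J mice, the inguinal (iWAT) and the epididymal (eWAT) white depot and the brown one (BAT). WT mice and mice lacking caspase-6 in the whole body (C6KO) were bred from heterozygous parents and kept as littermates. All groups, the WT group included, ate a high-fat diet (HFD, 60% of its calories as fat) during 12 weeks, which started when they were 10 to 14 weeks old, so that no lean group was compared. Each depot and genotype had 3 libraries, 18 in all, from poly(A) RNA of whole tissue.

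Proteins that enter the endoplasmic reticulum (ER) are folded there by chaperones, and unfolded proteins activate sensors in the ER membrane. Ern1 encodes the sensor IRE1α, which splices Xbp1 mRNA so that an active transcription factor is made, while Atf6 encodes a sensor that is cut to release a transcription factor. PERK, a further sensor in the ER membrane, and other kinases such as GCN2 phosphorylate eIF2α, which lowers general translation and raises the translation of Atf4. The ATF4 protein switches on genes such as Ddit3 (encoding CHOP), Trib3 and Asns. Counts per gene show the amount of mRNA, and splicing of Xbp1, translation of Atf4 and cleavage of ATF6 were not measured here.

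Sequencing depth was lower in BAT (7803108 to 12428683 counts) than in eWAT (16717201 to 19139694) and iWAT (16506034 to 19043523). Levels are given as CPM, the count relative to a library size that was scaled by TMM, a method that sets library sizes by the bulk of genes. Casp6, the targeted gene, had 11.2 to 23.1 CPM in the 9 WT libraries and 3.07 to 7.98 CPM in the 9 C6KO libraries, so that it was lower in every C6KO library. The summed level of 7 brown adipocyte markers was 5667 to 12709 CPM in BAT and at most 33.2 CPM in the white depots. Adipocyte markers (9 genes) summed to 11242 to 43192 CPM over all 18 libraries. Libraries of whole tissue also held other cells, and in such samples fewer cells of a type and less RNA per cell cannot be told apart. Macrophage markers (10 genes) summed to 1617 to 1799 CPM in WT against 408 to 1206 in C6KO in iWAT, to 6059 to 7196 CPM against 4040 to 5088 within eWAT, and to 599 to 751 CPM against 226 to 327 within BAT. The summed levels of these other cells were not used as a correction. A pair of BAT libraries stood apart. WT replicate 2 had a summed level of 29348 CPM of 7 skeletal muscle genes, where WT replicates 1 and 3 had 71.7 and 1346. C6KO replicates 1, 2 and 3 had 4656, 381 and 5873 CPM of these muscle genes. C6KO replicate 2 had 177 CPM of the cytosolic heat shock gene Hspa1b, where the other BAT libraries had at most 8.20. Fits without this pair thus still hold muscle transcripts in C6KO replicates 1 and 3. In iWAT, C6KO replicate 2 was the highest library for such genes, with 22.0 CPM of Hspa1b against at most 3.77 in the others, and C6KO replicate 3 had the macrophage sum of 1206 CPM, against 408 and 423 in the other C6KO libraries.

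The promoters of 9 of the 10 genes were matched in RefSeq (GRCm38.p6, the assembly also called mm10), all but Atf6, and the 250 bases before each transcription start were searched on both strands. The ER stress response element (ERSE), which ATF6 and XBP1 are known to bind with NF-Y, was searched as CCAAT, then 9 bases of any kind, then CCACG. It was found in 0.113% of 32851 promoters, among them those of Hspa5 and Hsp90b1. The sites of these abundant chaperone genes are shown because both genes are read-outs of the ATF6 and XBP1 branches. The capitals mark the element, and each site is written on the coding strand with flanking bases.
Hspa5: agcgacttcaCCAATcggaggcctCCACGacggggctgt
Hsp90b1, upstream site: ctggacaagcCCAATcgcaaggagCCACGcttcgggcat
Hsp90b1, downstream site: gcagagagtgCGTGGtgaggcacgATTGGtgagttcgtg
The printed Hspa5 stretch lies at chr2:34772015-34772053 on the plus strand, with the element at -65 to -47 from the start. The Hsp90b1 stretches lie at chr10:86705628-86705666 and chr10:86705523-86705561 on the minus strand, with the elements at -212 to -194 and at -107 to -89, the latter in the opposite orientation. The C/EBP-ATF response element, which ATF4 is known to bind and which was searched as TGATGNAA with N for any base, was found in 3.45% of promoters and, among the 9 genes, in that of Asns.
Asns: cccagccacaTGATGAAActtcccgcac
This stretch lies at chr6:7693215-7693242 on the minus strand, with the element at -23 to -16. A shorter form of the ER element (ATTGG, 1 base, CCACG), found in 0.0304% of promoters, was in none of the 9.

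In WT mice, the chaperones were the most abundant of these transcripts, and the sensors were among the least abundant. Levels of different genes were compared as CPM per kilobase of the transcript listed in the tables, with 1 scaling over all 18 libraries. Hspa5, encoding the main ER chaperone BiP, had 235 ± 57.7 CPM per kb in BAT, 205 ± 16.4 in eWAT and 164 ± 11.2 in iWAT (SD, n = 3). Hsp90b1, encoding the chaperone GRP94, followed with 164 ± 41.9, 196 ± 2.85 and 135 ± 8.85 CPM per kb in the same order. Library ranges of these 2 genes overlapped in BAT and eWAT but not in iWAT. Atf4 came next in each depot, with 133 ± 26.1, 81.0 ± 4.01 and 82.2 ± 5.57 CPM per kb, and its range overlapped with that of Hsp90b1 in BAT and with that of Xbp1 in iWAT. Ddit3, Xbp1, Asns and Dnajb9 lay in the middle. Their ranges overlapped with each other in BAT, while in eWAT only those of Dnajb9 and Ddit3 did and in iWAT only those of Asns and Ddit3. The lowest levels were those of Ern1, with 2.50 ± 0.824, 4.62 ± 0.283 and 2.71 ± 0.584 CPM per kb. Atf6, the other sensor gene among the 10, had 12.8 ± 2.45, 12.5 ± 0.793 and 9.94 ± 1.32 CPM per kb. Trib3, encoding a pseudokinase known to bind AKT, overlapped with Atf6 in iWAT and BAT and with Ern1 in eWAT, and Asns overlapped with Atf6 in eWAT. In C6KO mice the order of the 3 leading genes was the same in eWAT and BAT, while in iWAT Xbp1, at 123 CPM per kb, stood above Atf4 at 87.6, and in eWAT the ranges of Xbp1 and Atf4 overlapped.

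**Figure D1:**
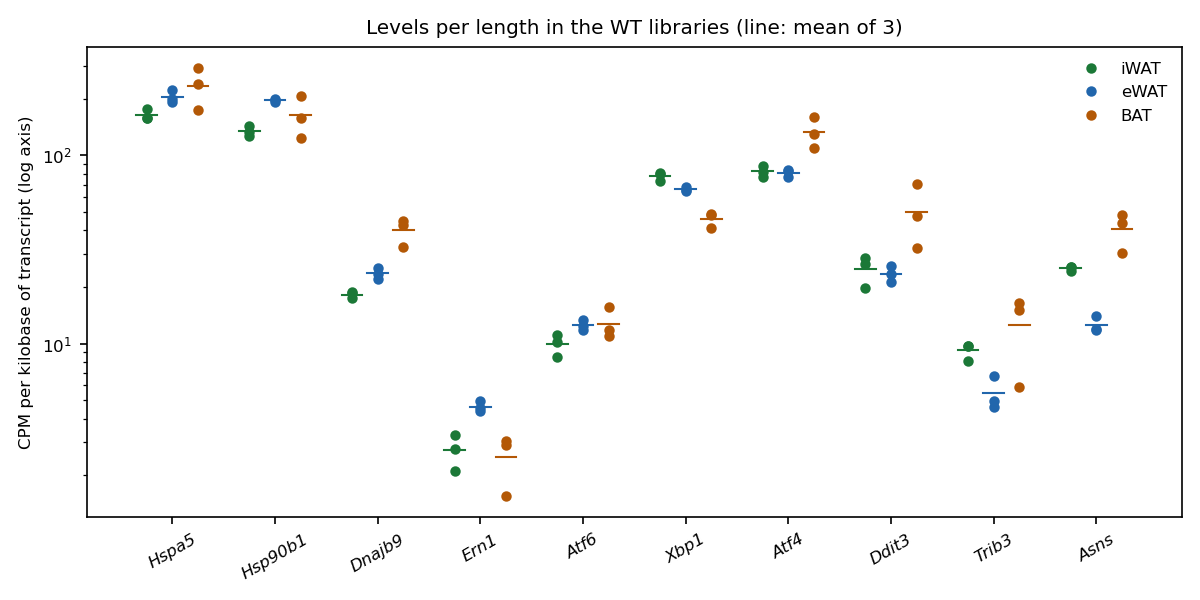
Levels of the 10 transcripts in WT mice, as CPM per kilobase on a log axis, with 1 point per library, 3 libraries per depot and a line at the mean. Hspa5 and Hsp90b1 lie highest and Ern1 lowest in all 3 depots, and Dnajb9 lies higher in BAT than in both white depots.

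Among WT depots, Atf4, Ddit3, Asns and Dnajb9 were higher in BAT than in both white depots, and Xbp1 was lower in BAT than in iWAT. The depots were compared in 1 edgeR quasi-likelihood fit of all 18 libraries over 15866 genes, and a call needed a p below 0.05 after Benjamini-Hochberg adjustment and a fold change of 1.5 or more. Between BAT and eWAT 6 of the 10 genes were called, 5 higher in BAT, where 48.6% of all genes tested were called. Between BAT and iWAT 5 were called, 4 higher in BAT, against 38.7% of all genes, and between eWAT and iWAT 2 were called against 25.7%. The counts of the 10 genes were thus near the shares of all genes.

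Asns, encoding asparagine synthetase, had 48.3, 30.3 and 43.6 CPM per kb in the WT libraries of BAT, 25.5, 24.3 and 25.5 in iWAT, and a mean of 12.6 ± 1.24 in eWAT. The 3 depots did not overlap. The log2 difference was 1.69 ± 0.216 (SE) for BAT against eWAT (edgeR adjusted p = 4.32e-06), 0.70 ± 0.211 for BAT against iWAT (adjusted p = 0.0120) and -0.99 ± 0.212 for eWAT against iWAT (adjusted p = 0.00196). Atf4 had 161, 130 and 109 CPM per kb in BAT, above all WT libraries of iWAT (77.1 to 88.1) and eWAT (76.5 to 84.1). Its log2 difference was 0.72 ± 0.138 against eWAT (adjusted p = 0.000297) and 0.70 ± 0.138 against iWAT (adjusted p = 0.000619). Under total counts as the only scaling these values were 0.42 and 0.54, below the fold change minimum, as they were without BAT WT replicate 1 (0.56 and 0.54). The same settings brought Asns in BAT against iWAT to 0.55 and 0.55.

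Ddit3, encoding the transcription factor CHOP, had 47.6, 32.3 and 70.5 CPM per kb in BAT, against 19.8 to 28.4 in iWAT and 21.1 to 25.7 in eWAT, with log2 differences of 1.01 ± 0.301 (adjusted p = 0.0117) and 1.10 ± 0.301 (adjusted p = 0.00528). Without iWAT WT replicate 2 or BAT WT replicate 3 the first of these was 0.86 and 0.67 and was not called. Trib3 had 15.1, 5.90 and 16.5 CPM per kb in BAT and 4.95, 4.59 and 6.76 in eWAT. BAT WT replicate 2, the library richest in muscle transcripts, thus lay within the range of eWAT. The log2 difference of Trib3 was 1.20 ± 0.372 (adjusted p = 0.0118), and 0.94 without BAT WT replicate 3 (adjusted p = 0.0634). It was 1.54 without BAT WT replicate 2.

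Dnajb9, encoding the BiP co-chaperone ERdj4, had 44.8, 32.8 and 42.9 CPM per kb in BAT, 17.4, 18.7 and 18.5 in iWAT and 25.1, 23.6 and 22.1 in eWAT. BAT lay above both white depots, by a log2 difference of 1.14 ± 0.178 from iWAT (adjusted p = 6.52e-05) and of 0.77 ± 0.176 from eWAT (adjusted p = 0.00135), the latter 0.47 and not called under total counts. Xbp1 went the other way. It had 48.7, 48.3 and 41.3 CPM per kb in BAT, against 73.3, 81.1 and 79.2 in iWAT (log2 difference -0.76 ± 0.140, adjusted p = 0.000320) and 64.8, 68.3 and 65.8 in eWAT (-0.53 ± 0.140, adjusted p = 0.00396, below the fold change minimum but -0.82 and called under total counts). Ern1 was highest in eWAT, with 4.37, 4.93 and 4.57 CPM per kb against 2.10 to 3.27 in iWAT and 1.55 to 3.04 in BAT. Its log2 difference of BAT against eWAT was -0.88 ± 0.253 (adjusted p = 0.00701). The call of eWAT against iWAT (0.77 ± 0.247, adjusted p = 0.0248) was lost without iWAT WT replicate 1 or 3 (0.62 and 0.78) or without eWAT WT replicate 2 or 3 (0.72 and 0.78). Hspa5, Hsp90b1 and Atf6 were called between no depots, with log2 differences between -0.26 and 0.54. Hspa5 in BAT against iWAT (0.51, edgeR adjusted p = 0.0147) failed only the fold change minimum. So did Hsp90b1 in eWAT against iWAT (0.54, adjusted p = 0.0181) and Atf6 in BAT against iWAT (0.36, adjusted p = 0.04997). Hspa5 was called higher in BAT than in iWAT without BAT WT replicate 2 (0.69, adjusted p = 0.000944). Hsp90b1 was called higher in eWAT than in iWAT under total counts (0.69), with at least 10 counts in every library (0.60) and without iWAT WT replicate 3 (0.59).

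The comparison of C6KO with WT mice asked whether the loss of caspase-6 changed the stress transcripts during HFD feeding. With edgeR, 3 libraries against 3 in each depot, 0 of the 10 genes were called in any depot, where 0.0275% (iWAT), 0.746% (eWAT) and 1.24% (BAT) of all genes were called. DESeq2 called Xbp1 and Asns in iWAT, 0 of the 10 in eWAT and Atf4 in BAT. Of all genes, DESeq2 called 666, 619 and 547 in these depots, where edgeR called 4, 111 and 168. DESeq2 tested fewer genes than the 25124 listed, and its number is not given here. At an unadjusted p below 0.05, 2 of the 10 were higher in C6KO in iWAT (Xbp1 and Asns), where 7.25% of all genes were, 4 were higher in eWAT (Hspa5, Dnajb9, Xbp1 and Asns), where 9.81% were, and 2 were lower in BAT (Atf4 and Hspa5), where 8.64% were. With each depot scaled alone, groups did not overlap for 2, 4 and 2 of the 10 genes, against 23.2%, 23.2% and 20.2% of all genes tested. They were the same genes in each depot as those with an unadjusted p below 0.05. Median log2 fold changes of the 10 genes were 0.19 (iWAT), 0.17 (eWAT) and -0.21 (BAT), beside 0.03, -0.01 and -0.03 for all genes tested.

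**Figure D2:**
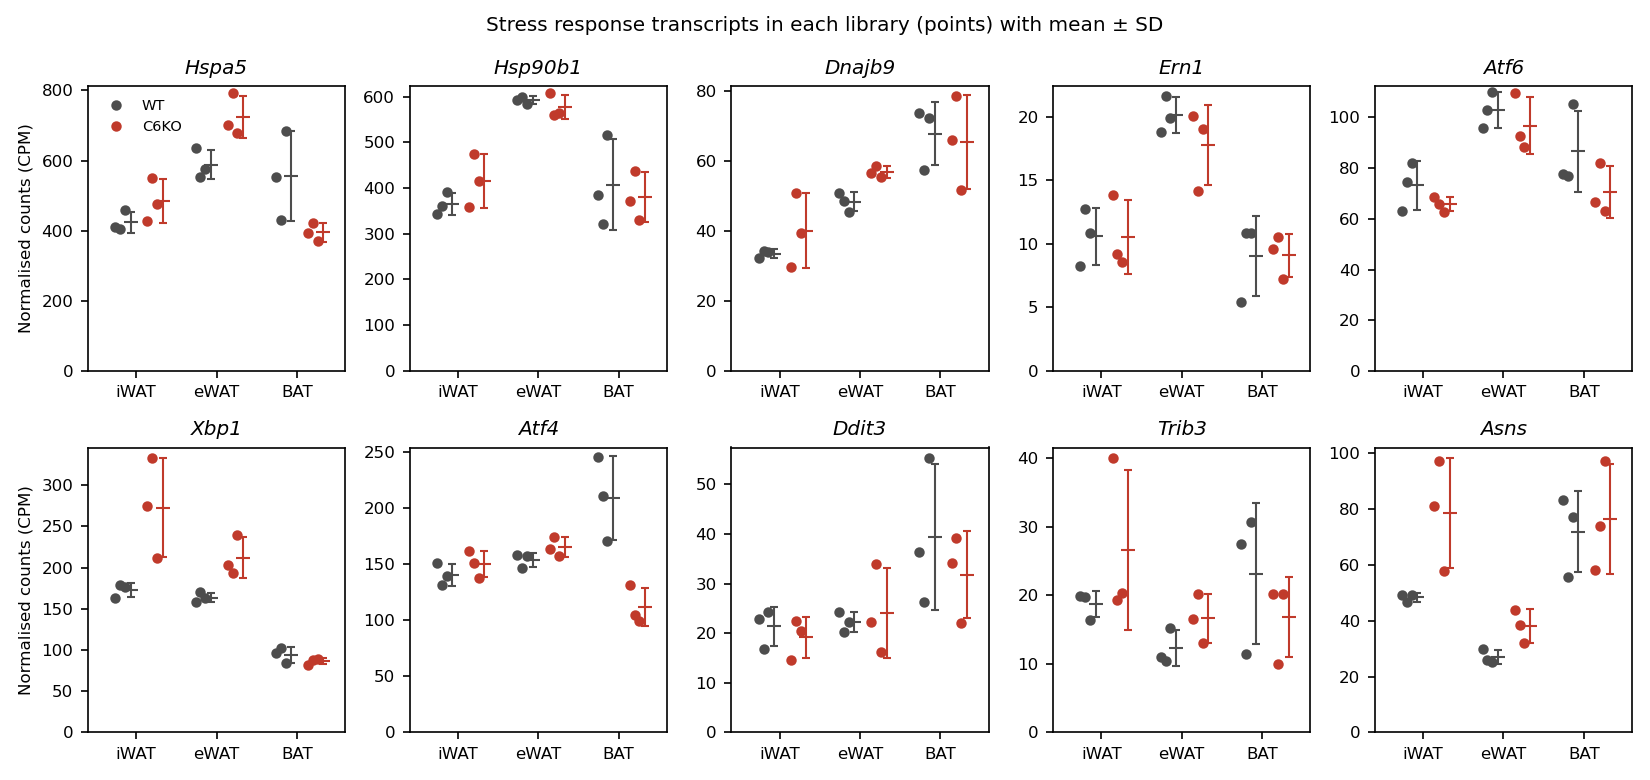
CPM of the 10 transcripts in each library, with 3 WT (grey) and 3 C6KO (red) points per depot and the mean ± SD beside them on axes that start at 0. Atf4 is lower in every C6KO than in every WT library of BAT, and Xbp1 and Asns are higher in every C6KO library of both white depots.

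Among the chaperones, Hspa5 (mm10, chr2:34772090-34776529) had 552, 429 and 686 CPM in the WT libraries of BAT and 392, 423 and 371 in C6KO. With BAT scaled alone the groups did not overlap, but the lowest WT library and the highest C6KO library, both replicate 2, were close. Under the scaling over all 18 libraries they overlapped, with 456 CPM in WT replicate 2 and 459 in C6KO replicate 2. The log2 fold change was -0.49 ± 0.204 (SE, edgeR adjusted p = 0.342), with -0.27 without BAT WT replicate 3 and -0.69 without both BAT libraries that stood apart. In eWAT, Hspa5 had 635, 554 and 576 CPM in WT and 702, 792 and 678 in C6KO, and all C6KO libraries lay above all WT libraries (log2 fold change 0.30 ± 0.117, adjusted p = 0.223). In iWAT it had 409, 405 and 458 CPM in WT and 427, 551 and 476 in C6KO, which overlapped (0.19 ± 0.145). The highest iWAT level of Hspa5, as of Hsp90b1, Dnajb9, Xbp1 and Asns, was that of C6KO replicate 2.

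Dnajb9 had 50.9, 48.7 and 45.5 CPM in WT and 56.6, 58.7 and 55.5 in C6KO in eWAT, without overlap. The log2 fold change of Dnajb9 there was 0.24 ± 0.0982 (adjusted p = 0.254), and its groups overlapped in iWAT (0.26 ± 0.186) and BAT (-0.05 ± 0.189). Hsp90b1 overlapped between genotypes in every depot, with log2 fold changes from -0.10 ± 0.217 in BAT and -0.04 ± 0.104 in eWAT to 0.19 ± 0.146 in iWAT. Over all annotated transcripts, the exons of Hsp90b1 hold 4032 bases, where the counted transcript has 2739. These exons share 415 bases with the pseudogene 1810014B01Rik on the opposite strand, and 84 and 133 bases with Gm15344 and Gm25745 on the same strand. Reads of shared stretches within the counted transcript cannot be told apart, those of the pseudogene only if the counting did not use strand. Which stretches lie within it was not checked. The 2 sensors overlapped between genotypes in every depot too. Ern1 showed log2 fold changes of -0.01 ± 0.249, -0.18 ± 0.158 and 0.00 ± 0.305 (iWAT, eWAT, BAT), and Atf6 had -0.16 ± 0.126, -0.09 ± 0.114 and -0.29 ± 0.181.

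Among the transcription factors, Atf4 (mm10, chr15:80255184-80257545) showed the lowest adjusted p of the 10 genes. In BAT it had 245, 211 and 170 CPM in WT and 131, 105 and 99.5 in C6KO, so that every C6KO library lay below every WT library. Mean levels were 209 ± 37.5 against 112 ± 17.0 CPM (SD, n = 3). The log2 fold change was -0.90 ± 0.190 (edgeR adjusted p = 0.0618) and was not called. It was -0.84 without both BAT libraries that stood apart (adjusted p = 0.142) and smallest, at -0.74, without BAT WT replicate 1. It was called by DESeq2 (adjusted p = 0.000975), without a low-count filter (0.0470) and in the fit of all 18 libraries (0.00152). Adjusted p-values without 1 BAT library each ranged from 0.0779 to 0.298. In the same libraries 8 of the 10 macrophage markers had an unadjusted p below 0.05 and were lower in C6KO. Neither macrophage nor progenitor sums (7 genes, 1054 to 1699 CPM in WT and 630 to 782 in C6KO) overlapped between genotypes, while those of adipocytes and brown adipocytes did. Endothelial sums were higher in C6KO without overlap (759 to 960 CPM in WT and 1062 to 1087 in C6KO). Sums of B and plasma cells (lower in C6KO), hepatocytes and mesothelial cells (both higher) did not overlap either, at 121 CPM or less. The part of these cells in the lower Atf4 was not tested. In iWAT, Atf4 had 151, 131 and 139 CPM in WT and 161, 151 and 138 in C6KO, while eWAT had 158, 147 and 157 against 163, 175 and 158. Both comparisons overlapped, with log2 fold changes of 0.10 ± 0.119 and 0.10 ± 0.0965.

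Xbp1 (mm10, chr11:5520641-5525993) had in iWAT 163, 179 and 176 CPM in WT and 274, 333 and 212 in C6KO, and 158, 170 and 163 against 203, 193 and 240 in eWAT. In both white depots every C6KO library was above every WT library. The log2 fold change was 0.66 ± 0.170 in iWAT (1.58 times, edgeR adjusted p = 0.165) and 0.37 ± 0.111 in eWAT (1.30 times, adjusted p = 0.121). In BAT, Xbp1 overlapped between genotypes (96.5, 102 and 83.9 CPM against 82.3, 88.0 and 89.2). The iWAT value moved with single libraries but stayed positive when any of them was left out. It was 0.49 (adjusted p = 0.311) without C6KO replicate 2, the highest of its group and the library rich in heat shock transcripts, and 0.79 and called (adjusted p = 0.00904) without C6KO replicate 3, the lowest of its group and the one with the high macrophage sum. DESeq2 (adjusted p = 0.0166) and the fit of all 18 libraries (adjusted p = 0.0255) called Xbp1 too. Ddit3 overlapped in all depots, with log2 fold changes from -0.31 ± 0.306 in BAT and -0.16 ± 0.206 in iWAT to 0.11 ± 0.247 in eWAT. Over all its annotated transcripts, Ddit3 shares 68 exon bases with Mars on the opposite strand, and whether these lie within the counted transcript was not checked.

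Among the targets of ATF4, Asns (mm10, chr6:7675165-7693209) had in iWAT 49.3, 46.6 and 49.3 CPM in WT and 81.1, 97.1 and 57.9 in C6KO, and 29.8, 25.9 and 25.4 against 44.0, 38.4 and 32.0 in eWAT. As for Xbp1, the groups did not overlap in either white depot. The log2 fold change was 0.70 ± 0.177 in iWAT (1.63 times, edgeR adjusted p = 0.164) and 0.50 ± 0.140 in eWAT (1.41 times, adjusted p = 0.109). The iWAT value moved with single libraries, to 0.52 (adjusted p = 0.311) without C6KO replicate 2 and to 0.86 with a call (adjusted p = 0.00407) without C6KO replicate 3. DESeq2 called Asns there (adjusted p = 0.0232), and the fit of all 18 libraries did not (0.0885). In BAT, Asns overlapped (83.1, 55.6 and 77.1 CPM against 58.3, 73.9 and 97.1, log2 fold change 0.09 ± 0.223), in the same libraries in which Atf4 was lower. Trib3 in iWAT had 19.8, 19.7 and 16.5 CPM in WT and 40.0, 19.3 and 20.4 in C6KO, where the mean rested on C6KO replicate 1. Its groups overlapped in each depot, with log2 fold changes from -0.46 ± 0.422 in BAT to 0.44 ± 0.209 in eWAT and 0.51 ± 0.278 in iWAT. In the white depots the adipocyte marker sum was higher in C6KO, as Xbp1 and Asns were. It was 27346 to 30885 CPM in WT against 37230 to 43192 in C6KO in iWAT, and 11242 to 13121 against 15963 to 20013 in eWAT. Among the C6KO libraries of eWAT, replicate 3 had the lowest adipocyte sum, the highest Xbp1 and the lowest Asns. Progenitor markers (7 genes) were lower in C6KO, at 4657 to 4775 against 1784 to 3212 in iWAT and 6833 to 8664 against 5571 to 6557 in eWAT. The part of these cells in the higher Xbp1 and Asns was not tested.

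**Figure D3:**
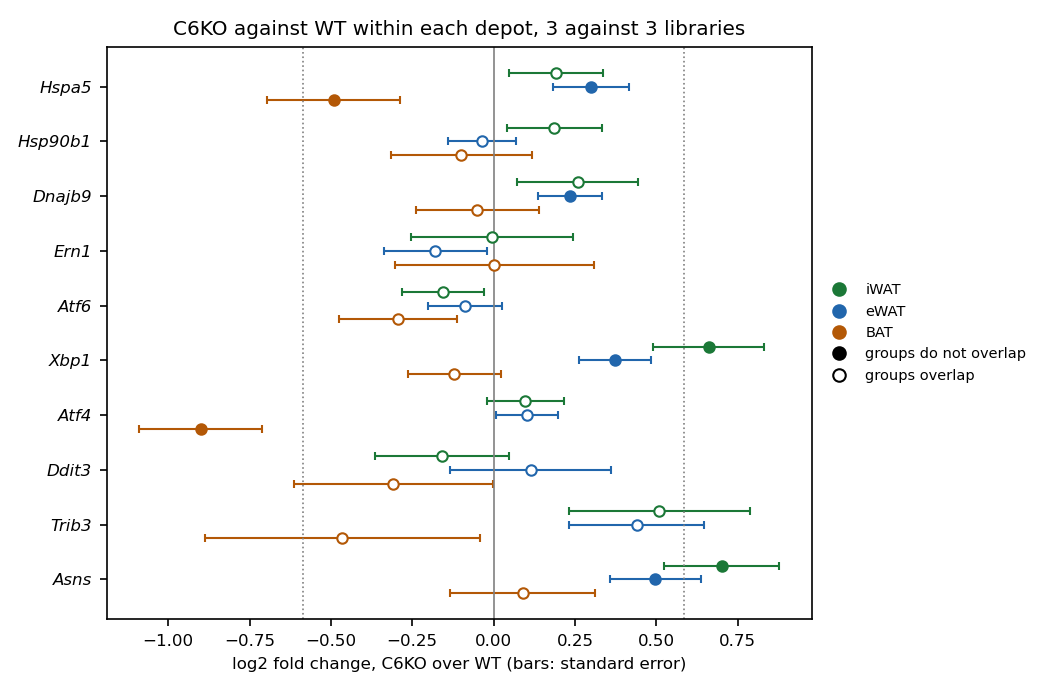
Log2 fold change of C6KO over WT for the 10 genes in iWAT, eWAT and BAT, with the standard error as bars and dotted lines at a fold change of 1.5. Filled points mark genes whose 3 C6KO and 3 WT libraries did not overlap with each depot scaled alone. Atf4 in BAT lies at -0.90, and Xbp1 and Asns in iWAT lie at 0.66 and 0.70.

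Whether the C6KO effect differed between depots was tested as an interaction in the fit of all 18 libraries. Atf4 was the 1 gene of the 10 that was called, lower in BAT relative to iWAT by a log2 difference of -1.01 ± 0.196 (edgeR adjusted p = 0.0459) and relative to eWAT by -1.01 ± 0.196 (adjusted p = 0.0235). Of all genes tested, 0.183% and 0.536% were called in these comparisons, and 0% between eWAT and iWAT, where 0 of the 10 were called by edgeR or DESeq2. At an unadjusted p below 0.05 the counts of the 10 genes were 3, 3 and 0, against 9.93%, 11.2% and 5.48% of all genes. Hspa5 and Xbp1 were the other genes with such a p. The C6KO effect on Hspa5 differed by -0.80 ± 0.227 between BAT and eWAT (adjusted p = 0.140) and by -0.69 ± 0.227 between BAT and iWAT (adjusted p = 0.311), and that on Xbp1 by -0.79 ± 0.197 between BAT and iWAT (adjusted p = 0.150). DESeq2 called Hspa5 between BAT and eWAT (adjusted p = 0.0204) and Xbp1 between BAT and iWAT (adjusted p = 0.0142). Of all genes it called 342 and 164 in these comparisons.

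The Atf4 difference kept its sign in every fit, and its call did not hold in all of them. Leaving out each of the 18 libraries in turn gave -1.13 to -0.85 between BAT and iWAT and -1.14 to -0.86 between BAT and eWAT. The call against iWAT remained in 3 of these 18 fits, those without iWAT C6KO replicate 3, BAT WT replicate 3 or BAT C6KO replicate 1, and the highest adjusted p, 0.146, was found without iWAT WT replicate 2. The call against eWAT was lost without eWAT WT replicate 1, 2 or 3 (adjusted p = 0.0580, 0.0934 and 0.0794), without eWAT C6KO replicate 1 or 2 (0.0551 and 0.0623) and without BAT C6KO replicate 2 or 3 (0.0796 and 0.0673). Without both BAT libraries that stood apart the differences of Atf4 were -0.98 and -0.99 (adjusted p = 0.0742 and 0.0673).

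The other genes of these pathways were read from 8 lists. The list of ATF4 and CHOP targets held 31 genes, among them amino acid transporters, enzymes of serine, proline and folate metabolism, stress hormones and stress regulators. In BAT, 29 were tested and 1 was called, lower in C6KO, with 8 lower and 0 higher at an unadjusted p below 0.05 (8.64% and 4.56% of all genes), and the median log2 fold change was -0.47 beside -0.03 for all genes. In eWAT, 31 were tested and 1 was called, higher in C6KO, with 8 higher and 2 lower at an unadjusted p below 0.05 (9.81% and 7.82% of all genes) and a median of 0.21. In iWAT, 30 were tested and 0 called, with 2 higher and 4 lower (7.25% and 9.29% of all genes) and a median of -0.17. DESeq2 called 2 lower in BAT, 4 higher in eWAT and 1 lower in iWAT. Of all genes it called 391 lower in BAT, 429 higher in eWAT and 498 lower in iWAT.

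The gene called in BAT was Psat1, encoding phosphoserine aminotransferase of serine synthesis, with 27.9, 29.5 and 31.2 CPM in WT and 7.21, 7.79 and 9.15 CPM for C6KO. The groups lay far apart relative to their spread. The log2 fold change was -1.87 ± 0.179 (edgeR adjusted p = 0.00388), and it was called by DESeq2 and without any 1 of the 6 BAT libraries. In iWAT and eWAT Psat1 overlapped between genotypes (-0.29 and 0.09), and the difference of the C6KO effect was -1.97 ± 0.308 between BAT and eWAT (adjusted p = 0.00616) and -1.59 ± 0.307 between BAT and iWAT (adjusted p = 0.0441, called in 11 of 27 fits and not without both BAT libraries that stood apart, with 0.0823). Gdf15, a stress hormone, the amino acid transporter gene Slc7a5 and the transcription factor gene Atf3 also had every C6KO library of BAT below every WT library and were not called by edgeR in the fit of BAT alone (22.9 against 4.54, 3.35 against 0.920 and 23.2 against 7.18 mean CPM). DESeq2 called Atf3 (adjusted p = 0.00397), and the fit of all 18 libraries called Gdf15, Slc7a5 and Pycr1 there. Further list genes without overlap that edgeR did not call in BAT alone were Aldh18a1 and Pycr1 of proline synthesis (8.07 against 4.28 and 1.53 against 0.231 mean CPM) and Mthfd2 of mitochondrial folate metabolism (6.91 against 2.99). Pycr1 had 2, 2 and 3 counts in the C6KO libraries of BAT, so that its fold change rests on few reads. Slc7a5 had 2 to 14 counts in these libraries and 23 to 53 in the WT libraries of BAT. The groups of Gdf15 in BAT were close, with 9.96 CPM in the lowest WT and 9.58 in the highest C6KO library. In eWAT Gdf15 went the other way, with 7.21 to 11.3 CPM in WT and 13.5 to 17.3 in C6KO, and DESeq2 called it. The macrophage and progenitor sums were lower in the C6KO libraries of BAT, and their part in the BAT values was not tested.

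The gene called in eWAT was Sesn2, encoding the stress-induced sestrin 2, with 30.2, 27.8 and 21.4 CPM in WT and 49.5, 42.6 and 44.4 CPM for C6KO. Its log2 fold change was 0.78 ± 0.143 (edgeR adjusted p = 0.0468). The call on Sesn2 was lost without eWAT WT replicate 1, 2 or 3 (0.90, 0.82 and 0.65) and without eWAT C6KO replicate 1 or 3 (0.72 and 0.80), in the fit of all 18 libraries (0.78, adjusted p = 0.336) and under total counts (0.73, adjusted p = 0.0501). Fgf21, a hormone made under amino acid and ER stress, rested on 12, 18 and 10 counts for WT and 50, 46 and 43 counts for C6KO in eWAT, without overlap (1.79 ± 0.372, adjusted p = 0.0571). Some other marker sums were also higher in C6KO in eWAT. Hepatocyte markers (7 genes) summed to 6.83 to 13.5 CPM in WT against 28.0 to 82.0 for C6KO, endothelial markers (5 genes) to 512 to 580 against 728 to 857, and adipocyte markers were higher too, as given above. Their part in these values was not tested. In BAT the counts of Fgf21 were 30, 16 and 42 against 17, 11 and 9. Atf3 was not called by edgeR, although its C6KO libraries lay below its WT libraries in the white depots too (59.9 against 13.8 mean CPM in iWAT and 275 against 194 in eWAT). DESeq2 called Atf3 lower in iWAT and did not call it in eWAT.

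**Figure D4:**
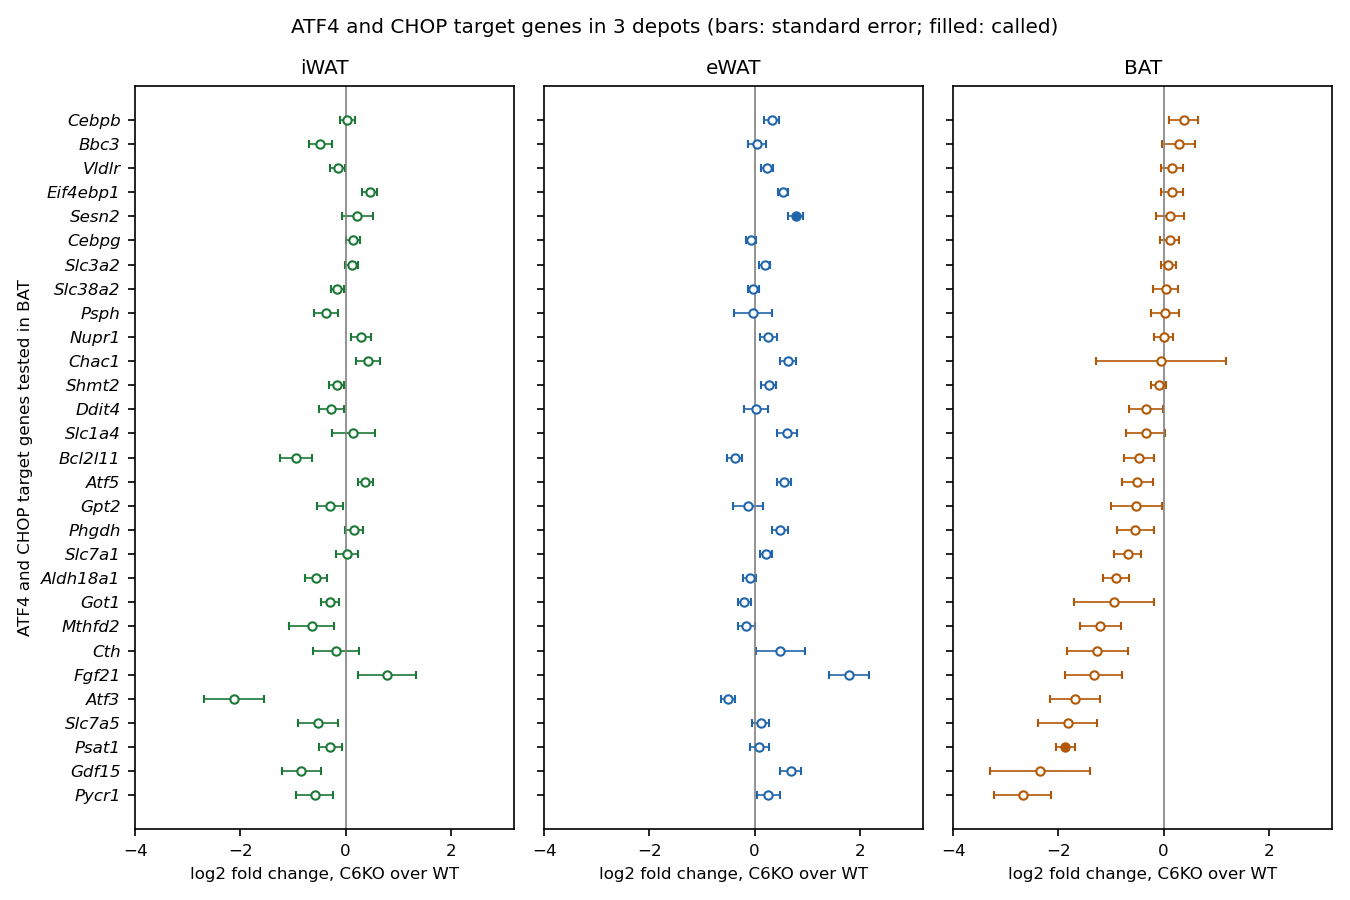
Log2 fold change of C6KO over WT, with standard errors as bars, for the 29 ATF4 and CHOP targets tested in BAT, in the order of their BAT value and shown for the 3 depots. Filled points were called, namely Psat1 in BAT and Sesn2 in eWAT.

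Across the other 7 lists, edgeR called 0 genes in any depot. Their counts at an unadjusted p below 0.05 stand beside 7.25%, 9.81% and 4.56% of all genes higher and 9.29%, 7.82% and 8.64% lower in iWAT, eWAT and BAT. Many of them, such as 1 of 20 or 1 of 13 genes, are near or below these shares. Others are above them, such as 4 of 11 mitochondrial and 5 of 13 heat shock genes higher in eWAT. Signalling genes such as the eIF2α kinases and eIF2B subunits (23 genes) had 4, 4 and 3 members higher and 0, 0 and 1 lower at an unadjusted p below 0.05 in iWAT, eWAT and BAT, and DESeq2 called Creb3l1, an ER-bound transcription factor gene, in eWAT (22.6 against 45.4 mean CPM) and Map3k5, encoding the stress kinase ASK1, in BAT (57.1 against 95.9), both higher in C6KO. ER chaperones and folding enzymes (29 genes) had 0, 1 and 0 higher and 1, 1 and 5 lower, with a median log2 fold change of -0.15 in BAT. Hyou1, encoding a nucleotide exchange factor of BiP, had 90.1 against 116 mean CPM in eWAT, and Hspa13 36.0 against 25.9 in BAT. ER-associated degradation (20 genes) had 1, 2 and 0 higher and 0, 0 and 2 lower, Edem1 of the BAT libraries with 102 against 68.4 mean CPM. ER translocation and export (20 genes, 19 tested) had 1, 1 and 0 higher and 0, 0 and 3 lower. Cytosolic aminoacyl-tRNA synthetases (13 genes), a further group of ATF4 targets, had 1, 0 and 0 higher and 0, 0 and 1 lower. The mitochondrial unfolded protein response (11 genes) had 1, 4 and 1 higher and 0 lower. Cytosolic heat shock proteins (13 genes) had 3, 5 and 0 higher and 0 lower. DESeq2 called Hsf1 in iWAT (24.9 against 41.1 mean CPM) and Hspb1 in eWAT (23.4 against 38.9). In BAT the median of the heat shock list was 0.71, and C6KO replicate 2 alone carried the high values of Hspa1b and Hsph1. In iWAT, C6KO replicate 2 stood apart likewise, with 147 CPM of Hsph1 against 29.6 to 35.9 in the other libraries, 22.0 of Hspa1b against at most 3.77 and 8.58 of Hspa1a against at most 2.30.

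Within the groups, the ER chaperones varied together between libraries. Deviations from the group means in log2 CPM over the 18 libraries had a Pearson r of 0.88 for Hspa5 and Hsp90b1 (Spearman's rho 0.74, r 0.70 without the 2 libraries farthest from the median of Hspa5) and of 0.85 for Hspa5 and Ddit3 (rho 0.93, r 0.81). Atf4 and Asns had an r of 0.01, and Atf4 and Trib3 of 0.25. The 18 libraries come from 3 depots and both genotypes and differ in depth, deviations in 1 library share its depth and scaling, and the values carry no test. Of 10160 genes whose mean was 10 CPM or more, those most like Hspa5 by this measure included Afg1l, Lyplal1, Dclre1a and Hsp90b1 (r 0.93 to 0.88), and those most like Trib3 were Capn12, Etv5, Hcn2, Slc2a8 and Plpp2 (r 0.89 to 0.84).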

How the data were processed

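Poly(A) RNA-seq of iWAT, eWAT and BAT from 18 libraries was used. Per the labels and the study's methods, the authors aligned reads to mm10 with STAR and deposited raw counts per gene on exons from HOMER, 1 transcript per gene. Versions, annotation release and strand setting are not given in the sources used here, and 2619 genes have different transcripts between the tables, none of the 10 among them. The deposited tables also list the length of each transcript, used for CPM per kb. Samples were grouped by their titles, and the labels call the libraries biological replicates. Whether the depots came from the same mice is not given in the sources used here, and fits over depots treated their libraries as separate samples.

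From the counts, edgeR 4.0.16 (limma 3.58.1, R 4.3.3) was run with filterByExpr, TMM and robust quasi-likelihood tests, leaving 13595 (BAT), 14533 (iWAT) and 14889 (eWAT) genes. Standard errors come from the F statistic. Alternatives were DESeq2 1.42.0, other scalings and filters, glmTreat, a replicate block and leaving out libraries. The 10 genes and all lists were chosen with earlier results of these data known. Named list genes were those called in a genotype comparison, and up to 4 per list with the largest fold change and a mean of at least 1 CPM. Other named genes, such as Aldh18a1, Mthfd2 and Pycr1, were chosen after their values were seen. Figures were drawn with matplotlib. For 1 gene that the rule on likeness names, the value is not reported here.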

Additional observations from a re-analysis of the deposited data

Results flagged for a closer look

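The C6KO effect differed between depots by an interaction test for 3 genes of the stress response. Atf4 differed by -1.01 on the log2 scale between BAT and iWAT and by -1.01 between BAT and eWAT (adjusted p = 0.0459 and 0.0235 from edgeR's quasi-likelihood test). Psat1 differed by -1.59 and -1.97 in the same comparisons (adjusted p = 0.0441 and 0.00616). Pycr1 differed by -2.97 between BAT and eWAT (adjusted p = 0.00662), with at most 3 counts per C6KO library in BAT.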

How the results depend on the processing

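Over the alternatives, 313 of 404 counts of called genes kept within 1.5 times of their value. These counts were taken over all genes and over the 10 genes, and counts of 0 that stayed 0 were among those kept. The share therefore does not measure how stable the larger counts were. C6KO against WT called 4, 111 and 168 genes in iWAT, eWAT and BAT with edgeR, and 666, 619 and 547 with DESeq2. Without a low-count filter iWAT had 32 and eWAT 321 calls, and with at least 10 counts in every library iWAT had 2. Total counts as the only scaling left 67 in eWAT, and glmTreat against a fold change of 1.5 left 2 in eWAT and 53 in BAT. A single fit of all 18 libraries gave 366, 4 and 525. Leaving out 1 library gave 28 to 178 (BAT), 2 to 347 (eWAT) and 3 to 1278 (iWAT). Of the 10 stress genes, 0 were called with edgeR, 2 with DESeq2, 1 in the single fit and 0 to 2 without 1 library in iWAT, and 1 each with DESeq2, without the filter and in the single fit in BAT.

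Differences of the C6KO effect gave 14, 164 and 342 DESeq2 calls (eWAT minus iWAT, BAT minus iWAT, BAT minus eWAT), with 2 of the 10 genes in each of the latter. Without 1 library they gave 0 to 241, 14 to 112 and 22 to 196, with 0 to 2 of the 10 genes for BAT. For BAT minus iWAT, 0 of the 10 were called with DESeq2 size factors in edgeR, without the filter or, chosen after seeing the data, without both BAT libraries that stood apart (62 genes). Between WT depots, 1 to 2, 3 to 6 and 5 to 6 of the 10 were called without 1 library, and 3 for BAT minus iWAT under total counts, which moved the median of all genes by 0.14, -0.14 and -0.29.

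Replicate numbers did not pair WT with C6KO libraries within a depot. Correlations of same-numbered deviations lay between -0.60 and -0.24 (BAT), -0.10 and 0.16 (eWAT), and 0.02 and 0.04 (iWAT). Between depots, libraries of the same genotype and number had mean correlations of 0.096 (iWAT and eWAT), 0.053 (iWAT and BAT) and 0.012 (eWAT and BAT). Those of other numbers had -0.048, -0.027 and -0.006, values nearly fixed by the former because deviations within each group cancel out. These values do not settle whether the depots shared mice. A replicate block gave 62 calls in iWAT and 414 in eWAT, with Atf4 in BAT at -0.89 (adjusted p = 0.0706).

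The log2 values of 2 heat shock genes turned. Cryab without both BAT libraries became 0.82 for C6KO in BAT, -1.94 and -0.90 for WT BAT minus iWAT and eWAT, and 0.78 and 0.23 for the difference of the C6KO effect. Over single libraries left out, the WT values ranged from -1.94 to 0.77 and -0.90 to 1.81. Hspb1 differences of the C6KO effect became -0.81 and -0.97 without both libraries, and without BAT C6KO replicate 2 -1.03 and -1.19 (the lowest, against highest values of 0.88 and 0.72 without 1 library). The causes were not tested. Depth limits Pycr1 and Fgf21, with under 50 counts per BAT library, and Slc7a5, with 2 to 14 counts per C6KO library of BAT.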
